A study of Mus musculus with 7 samples.

Results

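Pim1, Pim2, Pim3, Bcl6, Ptpn1, Ptpn2, Ptpn6 and Ptpn11 were examined as the genes that sit below the prolactin receptor as STAT-regulated genes or as tyrosine phosphatases acting on the pathway. They were chosen by name, and all 8 had a probe set annotated with their symbol alone, out of 19938 genes tested. Transcripts had been measured with 1 Affymetrix expression array per mouse in pancreatic islets of pregnant C57BL/6 females on day 15 of pregnancy. The 3 PrlR+/+ mice had an intact prolactin receptor gene, and the 4 PrlR+/- mice carried 1 null allele of it; per the labels, mating began at 12 to 16 weeks of age and each mouse gave its own islet sample. The labels do not say how the null allele was made or in which cells it acts. Whole islets were measured, so fewer cells of a type and less RNA per cell cannot be told apart.

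The prolactin receptor has no kinase of its own and signals through the bound kinase Jak2, which phosphorylates STAT5 so that it enters the nucleus and binds DNA. In pregnancy this pathway is known to support growth and secretion of beta cells. Pim kinases are serine/threonine kinases that are active as soon as they are made, so their activity follows the amount of transcript and protein, and they are induced by cytokines through STATs in blood cells. Bcl6 is a transcriptional repressor that recognises DNA resembling STAT sites. Ptpn1, Ptpn2, Ptpn6 and Ptpn11 are non-receptor tyrosine phosphatases that remove phosphate from receptors, JAKs or STATs.

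STAT5 dimers are known to bind the palindrome TTCNNNGAA, and RefSeq promoter windows (build GRCm38.p6, 250 bases before to 50 after an annotated start) were searched for it. Of the 8 genes, 7 had windows, 9 windows in all, and the motif was found in both windows of Bcl6 and in none of the 7 other windows. The window at chr16:23988803-23989102, minus strand, held 1 match, and the one at a second Bcl6 start, chr16:23981234-23981533, minus strand, held 3. Among all 32851 windows 8.3% held at least 1 match and 0.0335% held 3 or more. The motif reads the same on both strands. The Bcl6 windows are shown 5′ to 3′ because they hold these matches, which are in capitals.
Bcl6, first start: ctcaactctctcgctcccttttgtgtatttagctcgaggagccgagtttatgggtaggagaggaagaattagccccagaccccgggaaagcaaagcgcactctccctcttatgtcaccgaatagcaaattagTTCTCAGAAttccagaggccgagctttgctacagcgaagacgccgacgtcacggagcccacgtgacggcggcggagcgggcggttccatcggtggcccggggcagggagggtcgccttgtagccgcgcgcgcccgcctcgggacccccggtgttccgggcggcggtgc
Bcl6, second start: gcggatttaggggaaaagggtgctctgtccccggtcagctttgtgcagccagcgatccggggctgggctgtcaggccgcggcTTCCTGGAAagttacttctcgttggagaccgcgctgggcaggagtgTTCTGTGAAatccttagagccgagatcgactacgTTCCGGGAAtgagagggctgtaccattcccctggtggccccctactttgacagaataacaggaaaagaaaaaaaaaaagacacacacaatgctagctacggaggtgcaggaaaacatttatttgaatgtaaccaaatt
The matches began 118 bases before the first start, and 168, 122 and 88 bases before the second. A match is a description of the letters and not a measured binding site, and windows without one may have sites elsewhere.

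Pim1 and Pim3 were the members whose levels followed each other most closely across mice, as described below, and their windows are shown with each GGGCGG or its reverse complement, the GC box, in capitals. The Pim1 window is chr17:29490535-29490834 and the Pim3 window chr15:88861944-88862243, both on the plus strand.
Pim1, first start: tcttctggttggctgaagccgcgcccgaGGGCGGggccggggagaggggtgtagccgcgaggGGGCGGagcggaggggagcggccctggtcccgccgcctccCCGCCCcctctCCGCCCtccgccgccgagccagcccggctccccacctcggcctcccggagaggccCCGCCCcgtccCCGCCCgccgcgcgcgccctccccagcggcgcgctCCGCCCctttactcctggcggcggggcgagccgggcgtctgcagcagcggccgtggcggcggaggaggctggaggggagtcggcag
Pim3: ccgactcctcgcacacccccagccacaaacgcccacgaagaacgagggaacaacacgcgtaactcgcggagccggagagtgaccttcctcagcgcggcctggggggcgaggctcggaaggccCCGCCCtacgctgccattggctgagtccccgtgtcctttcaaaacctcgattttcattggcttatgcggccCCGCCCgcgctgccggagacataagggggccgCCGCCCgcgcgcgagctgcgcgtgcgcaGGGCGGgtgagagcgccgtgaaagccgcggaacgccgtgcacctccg
Pim1 held 7 GC boxes and Pim3 held 4. GC boxes are common, with at least 1 in 35.7% of all windows and 3 or more in 10.7%. A second Pim1 start, at chr17:29492835-29493134, had none. The window of Pim2 held 1, that of Ptpn1 2, that of Ptpn11 4 and that of Ptpn6 5, while the Bcl6 windows held 2 at the first start and 0 at the second.

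The arrays were alike in their overall level, with a median gene value between 7.34 and 7.37 on each. Islet markers were at the bright end of the scale, with Ins2 between 13.23 and 13.36, Gcg between 13.47 and 13.63 and Sst between 13.36 and 13.70. Some other beta cell genes moved more. In PrlR+/- 4 the glucose transporter gene Slc2a2 read 11.31 and the transcription factor gene Mafa 9.54. The other mice read 11.94 to 12.39 and 10.32 to 10.36. The mean of 11 beta cell markers was 12.04 in PrlR+/- 4, against 12.20 to 12.36 elsewhere. Not every marker was low in that mouse. Iapp read 13.52 and Nkx6-1 11.27 there, the highest value of each, shared with PrlR+/- 3. Pdx1 was lowest in PrlR+/+ 2, at 10.64. The mean of 11 acinar markers, high in all samples, reached 12.17 in PrlR+/- 2 against 11.45 to 11.88 elsewhere, and 10 of the 11 had a higher mean in PrlR+/- islets. The 13 measured genes of a dissociation and stress list stood apart in 1 mouse: PrlR+/+ 3 had a list mean of 9.69, against 8.04 to 8.42 for the other 6 mice. With only 3 and 4 arrays per genotype precision is limited, and the labels name no batch.

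Across the 8 genes, PrlR+/- and PrlR+/+ islets did not differ beyond the spread between mice in any one. limma called 0 of the 8, with adjusted p between 0.99 and 0.999 over all genes, beside 0.0% of all genes called. Unadjusted p ran from 0.0929 to 0.907 for the 8 genes, so 0 of them lay under 0.05, where 2.2% of all genes did. The means were lower in PrlR+/- for 7 of the 8 genes, where 43.7% of all genes had a lower mean, and log2 differences ranged from -0.28 to 0.02. The median difference of the 8 genes was -0.13, beside 0.0142 over all genes. Without PrlR+/+ 2 the signs of Ptpn1 and Ptpn11 turned to higher and that of Ptpn6 to lower. With that mouse left out, 6 of the 8 means were lower. In 0 of the 8 were the groups free of overlap, compared with 2.24% of all genes (1.21% lower and 1.03% higher in PrlR+/-). Exact 2-sided permutation tests over the 35 splits of the mice gave p between 0.0857 and 0.886, where 0.0286 is the smallest possible. The 95% interval of the difference lay within 1.5-fold in both directions for 7 genes, all but Pim2.

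**Figure D1:**
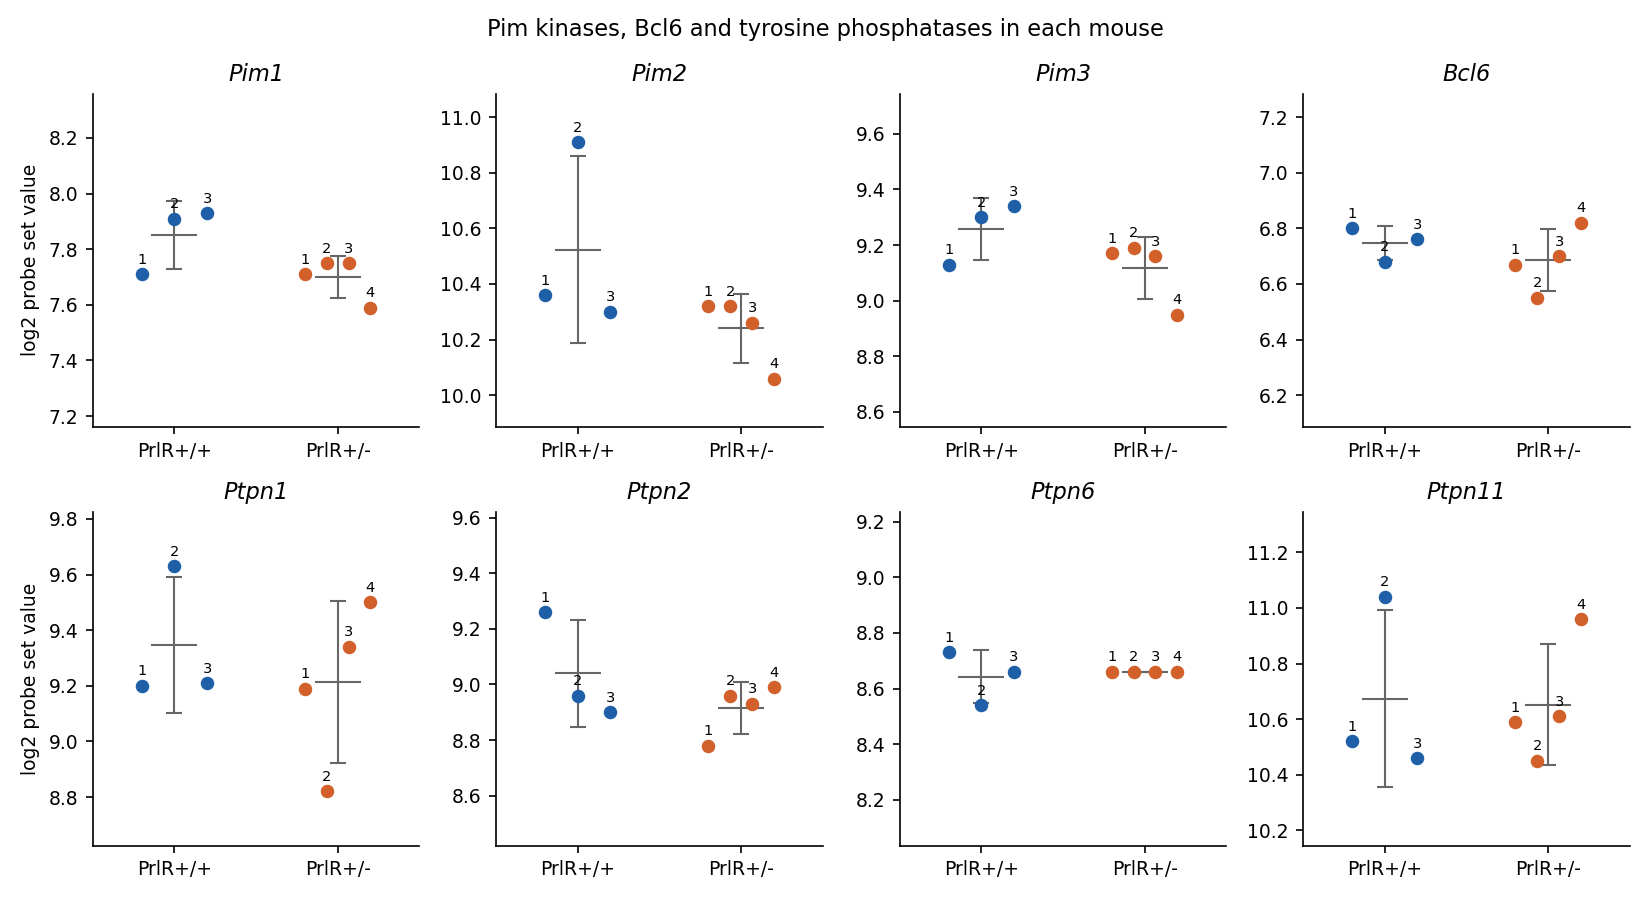
Log2 probe set values of the 8 genes in each mouse, by genotype (blue PrlR+/+, orange PrlR+/-); each point is 1 mouse with its number, the long tick is the group mean and the bar 1 SD. Each panel spans 1.2 log2 units around its own gene. The genotypes overlapped for every gene, and PrlR+/+ 2 was the highest mouse for Pim2, Ptpn1 and Ptpn11.

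The Pim kinase genes all had lower means in PrlR+/- islets, by 0.14 to 0.28 on the log2 scale, and none passed the test. Pim1, the family member best known as a STAT5 target and a survival kinase (probe set 10443527), had log2 values of 7.71, 7.91 and 7.93 in PrlR+/+ 1 to 3 and of 7.71, 7.75, 7.75 and 7.59 in PrlR+/- 1 to 4. PrlR+/+ 2 and PrlR+/+ 3 were above all 4 PrlR+/- mice, while PrlR+/+ 1 was level with PrlR+/- 1. Its mean was 7.70 ± 0.08 (SD, n = 4) against 7.85 ± 0.12 (SD, n = 3), a log2 difference of -0.15 ± 0.08 (SE) and a ratio of 0.901 with a 95% interval from 0.794 to 1.02 (limma, adjusted p = 0.99). The difference was -0.11 without PrlR+/+ 3, the mouse with the high stress list, -0.11 without PrlR+/- 4 and -0.22 without PrlR+/+ 1.

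Pim3, known in mouse beta cells as a brake on insulin secretion (probe set 10426110), showed a similar order of mice. Its log2 values were 9.13, 9.30 and 9.34 in PrlR+/+ and 9.17, 9.19, 9.16 and 8.95 in PrlR+/- islets. PrlR+/+ 1 lay below 3 of the 4 PrlR+/- mice, and PrlR+/- 4 lay apart from its group on the low side. The means were 9.12 ± 0.11 (SD, n = 4) and 9.26 ± 0.11 (SD, n = 3), with a log2 difference of -0.14 ± 0.09 (SE) and a ratio between 0.79 and 1.04 (95% interval; limma, adjusted p = 0.99). Without PrlR+/- 4 the log2 difference was -0.08, and without PrlR+/+ 3 it was -0.10. PrlR+/- 4 was the lowest mouse for Pim1, Pim2 and Pim3. The beta and alpha cell marker means were also lowest there (alpha 10.61, against 10.80 to 10.90 in the other mice). Their part in the Pim values was not tested. Pim1 and Pim3 were both highest in PrlR+/+ 3, where the stress list was also highest, and the part of that list in their differences was not tested beyond leaving out that mouse and a covariate, with which the differences were -0.10 and -0.09.

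Pim2, a Pim kinase strongly expressed in lymphoid cells (probe set 10598467), had the largest difference of the 8 genes, and it rested on 1 mouse. Its log2 values were 10.36, 10.91 and 10.30 in PrlR+/+ and 10.32, 10.32, 10.26 and 10.06 in PrlR+/- islets. PrlR+/+ 2 lay far above the other 6 mice, which spanned 10.06 to 10.36. The group means were 10.24 ± 0.12 (SD, n = 4) and 10.52 ± 0.34 (SD, n = 3), a log2 difference of -0.28 ± 0.15 (SE) and a ratio of 0.822 with an interval from 0.639 to 1.06 (limma, adjusted p = 0.99). Without PrlR+/+ 2 the log2 difference was -0.09. With the acinar marker mean as a covariate it was -0.40. The mean of 11 lymphocyte markers, which were dim, was 5.64 in PrlR+/+ 2, 5.56 and 5.63 in the other PrlR+/+ mice, and highest in PrlR+/- 4, at 5.90; its part in the Pim2 values was not tested.

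Bcl6 (probe set 10438738), known in lymphoid cells to be lowered by STAT5, had the smallest difference outside Ptpn6 and Ptpn11. Its log2 values were 6.80, 6.68 and 6.76 in PrlR+/+ and 6.67, 6.55, 6.70 and 6.82 in PrlR+/- islets. PrlR+/- 4 was the highest mouse and PrlR+/- 2 the lowest, so the PrlR+/- values enclosed those of PrlR+/+. The means were 6.69 ± 0.11 (SD, n = 4) and 6.75 ± 0.06 (SD, n = 3), a log2 difference of -0.06 ± 0.08 (SE), and the 95% interval of the ratio ran from 0.846 to 1.08 (limma, adjusted p = 0.99). The values lay below the median gene value of each array, and no detection call was analysed here. Without PrlR+/- 2 the log2 difference was -0.02 and without PrlR+/- 4 it was -0.11. PrlR+/- 2 was the mouse with the highest acinar marker mean and the lowest values of Bcl6, Ptpn1 and Ptpn11, and with that mean as a covariate the log2 difference was -0.01 for Bcl6, -0.08 for Ptpn1 and -0.03 for Ptpn11.

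**Figure D2:**
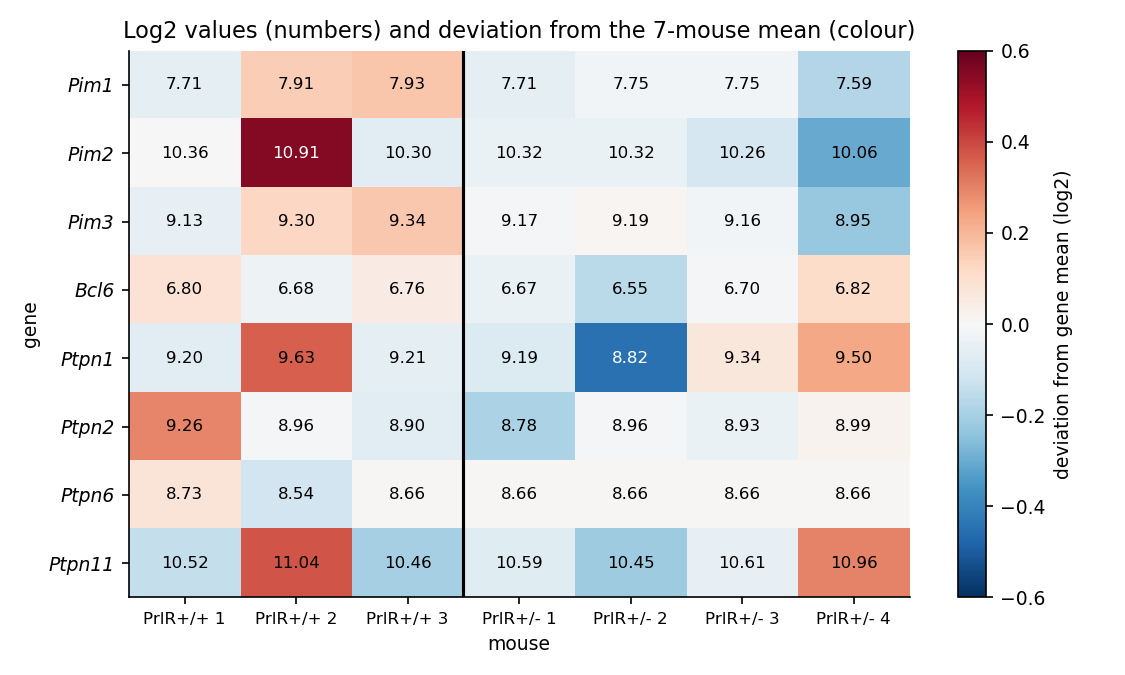
Log2 value of each gene in each mouse (numbers), with colour for its deviation from the mean of that gene over the 7 mice; the vertical line separates PrlR+/+ from PrlR+/-. Pim2, Ptpn1 and Ptpn11 were highest in PrlR+/+ 2, and all 3 Pim genes were lowest in PrlR+/- 4, where Ptpn1 and Ptpn11 were high.

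Of the phosphatases, Ptpn1 and Ptpn2 had lower means in PrlR+/- islets, and Ptpn6 and Ptpn11 differed by no more than 0.02. Ptpn1, the phosphatase PTP1B of the endoplasmic reticulum that acts on Jak2 and on the insulin receptor (probe set 10478897), had log2 values of 9.20, 9.63 and 9.21 in PrlR+/+ and 9.19, 8.82, 9.34 and 9.50 in PrlR+/- islets. The highest mouse was PrlR+/+ 2 and the lowest PrlR+/- 2, with the other 5 mixed between them. Its log2 difference was -0.13 ± 0.18 (SE), from means of 9.21 ± 0.29 (SD, n = 4) and 9.35 ± 0.25 (SD, n = 3), and the interval of the ratio ran from 0.681 to 1.22 (limma, adjusted p = 0.99). Without PrlR+/+ 2 the log2 difference was 0.01.

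Ptpn2, the phosphatase TC-PTP, which acts on Jak1, Jak3 and STATs (probe set 10459590), had log2 values of 9.26, 8.96 and 8.90 in PrlR+/+ and 8.78, 8.96, 8.93 and 8.99 in PrlR+/- islets. Only PrlR+/+ 1 exceeded every PrlR+/- mouse, and without it the log2 difference of -0.13 ± 0.10 (SE) became -0.02. The means were 8.92 ± 0.09 (SD, n = 4) and 9.04 ± 0.19 (SD, n = 3; limma, adjusted p = 0.99). Ptpn2 was the 1 gene of the 8 with a second probe set, 10459602, whose annotation lists a subset of the transcripts. That probe set read 7.09, 6.36 and 6.78 in PrlR+/+ and 6.81, 6.88, 6.78 and 6.78 in PrlR+/- islets. The probe sets disagreed in sign, with a log2 difference of 0.07 for the second, and both were highest in PrlR+/+ 1.

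Ptpn6, the phosphatase SHP-1, which restrains cytokine receptors in blood cells (probe set 10547769), had the most even values of the 8 genes. It read 8.73, 8.54 and 8.66 in PrlR+/+ islets and 8.66 in all 4 PrlR+/- mice. An identical value on 5 or more of the 7 arrays occurred for 5.23% of all genes in the deposited table, so the lack of spread in PrlR+/- does not show how alike the mice were. The log2 difference was 0.02 ± 0.06 (SE), and the ratio lay between 0.915 and 1.12 (95% interval; limma, adjusted p = 0.99). That interval draws on the repeated values, so its width carries the same limit. Without PrlR+/+ 2 the log2 difference was -0.04.

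Since Ptpn6 is mostly a gene of blood cells, leukocyte markers were set beside it. The mean of 9 pan-leukocyte markers was 6.87, 6.64 and 6.87 in PrlR+/+ and 6.80, 6.94, 6.92 and 6.89 in PrlR+/- mice, and that of 16 myeloid markers 7.64, 7.26 and 7.60 against 7.62, 7.70, 7.56 and 7.56. Both means were lowest in PrlR+/+ 2, as was Ptpn6. The lymphocyte marker mean was not, with 5.64 there and 5.56 in PrlR+/+ 1. Marker means of delta and PP cells were also lowest in PrlR+/+ 2, at 9.39 and 9.58. A low value in that mouse was therefore not particular to leukocyte markers. Ptprc, the leukocyte phosphatase CD45, which can also act on JAKs, read 6.59, 6.48 and 6.54 in PrlR+/+ and 6.30, 6.59, 6.56 and 6.41 in PrlR+/- islets, a log2 difference of -0.07 ± 0.08 (SE; limma, adjusted p = 0.99). With the pan-leukocyte mean as a covariate the log2 difference was -0.03 for Ptpn6 and -0.10 for Pim2, close to the -0.04 and -0.09 without PrlR+/+ 2. This covariate mainly marks that mouse, in which Pim2 was highest and the leukocyte mean lowest.

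Ptpn11, the phosphatase SHP-2, which relays receptor signals to the Ras pathway besides acting on STAT5 (probe set 10533285), had a nearly equal mean in both genotypes. Its log2 values were 10.52, 11.04 and 10.46 in PrlR+/+ and 10.59, 10.45, 10.61 and 10.96 in PrlR+/- islets. 1 mouse of each genotype, PrlR+/+ 2 and PrlR+/- 4, stood above the other 5, which spanned 10.45 to 10.61. The means were 10.65 ± 0.22 (SD, n = 4) and 10.67 ± 0.32 (SD, n = 3), with a log2 difference of -0.02 ± 0.17 (SE) and a ratio between 0.745 and 1.30 (95% interval; limma, adjusted p = 0.999). Without PrlR+/+ 2 the log2 difference was 0.16, and without PrlR+/- 4 it was -0.12.

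**Figure D3:**
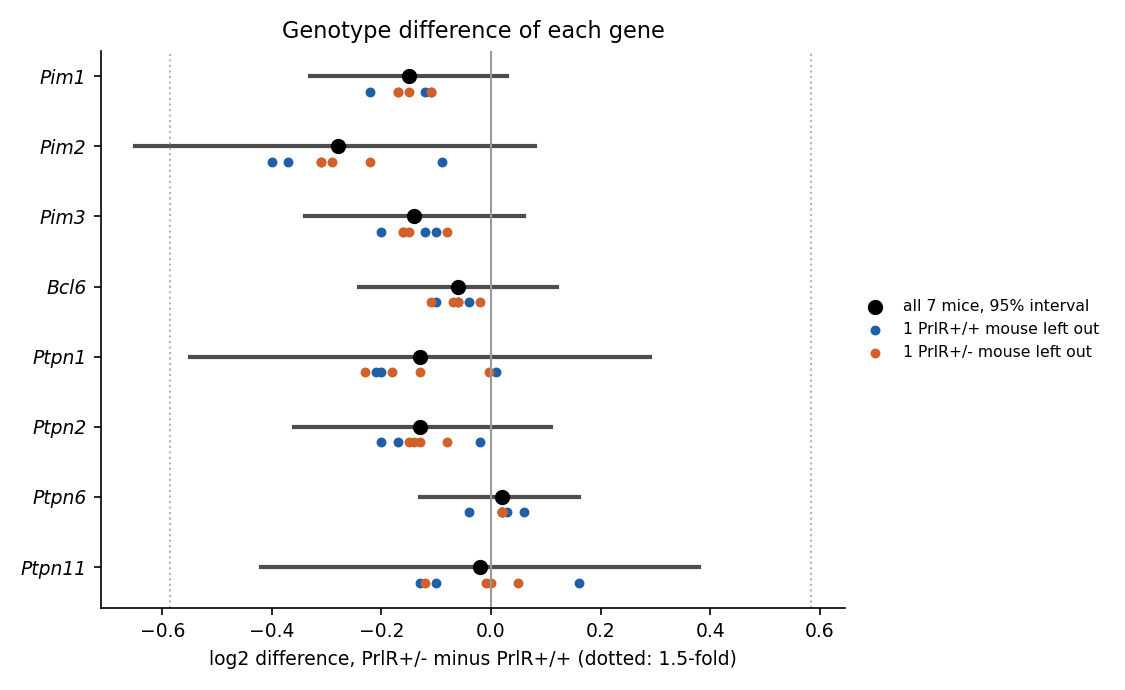
Log2 difference, PrlR+/- minus PrlR+/+, of each gene from all 7 mice (black, with the 95% interval from limma) and with 1 mouse left out (small points: blue for a PrlR+/+ and orange for a PrlR+/- mouse). Every interval includes 0, only that of Pim2 passes the dotted 1.5-fold line, and the difference of Pim2 shrinks to -0.09 without PrlR+/+ 2.

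Among the 28 pairs that the 8 genes form, Pim1 with Pim3 and Ptpn1 with Ptpn11 were the closest across the 7 mice. For Pim1 and Pim3 Pearson's r was 0.967 (exact permutation p = 0.00159, 0.0222 after Benjamini-Hochberg adjustment over the 28 pairs) and Spearman's rho 0.909 (exact permutation p = 0.00794, adjusted 0.222). Without PrlR+/+ 2 and PrlR+/+ 3, the mice farthest from the median of Pim1, r was 0.968, and for deviations from the genotype means it was 0.954. With any 1 mouse left out r was 0.951 to 0.982, and its adjusted p was 0.0778 to 0.363 by the exact permutation test. The call was then lost. With a mouse fewer there are fewer pairings, and Pim1 held tied values, which raise the smallest p this test can reach. Losing the call therefore does not decide whether the relation rests on 1 mouse. Ptpn1 and Ptpn11 had r = 0.867 (exact permutation p = 0.00139, adjusted 0.0222) and rho = 0.857 (exact permutation p = 0.0238, adjusted 0.333). Without PrlR+/+ 2 and PrlR+/- 2, the farthest mice for Ptpn1, r was 0.922, and for deviations from the genotype means 0.89. The call was lost after quantile normalization (exact permutation, adjusted p = 0.117) and with any 1 mouse left out (0.0778 to 0.521). The pooled values join both genotypes, whose groups are too small for an r of their own, and by rho 0 of the 28 pairs passed the adjustment.

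The 2 relations differed in how common they were among other genes. Of 7670 genes above the median level with an SD of at least 0.1, Pim3 was the second closest to Pim1 and Pim1 the third closest to Pim3. In contrast, Ptpn11 came 257th for Ptpn1 and Ptpn1 169th for Ptpn11, so many genes outside the family followed either phosphatase as closely. Pim1 and Pim3 were both lowest in PrlR+/- 4 and both highest in PrlR+/+ 2 and PrlR+/+ 3. Pim2 was less close, with r of 0.678 with Pim1 and 0.643 with Pim3 (exact permutation p = 0.0929 and 0.155, adjusted 0.65 and 0.693).

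**Figure D4:**
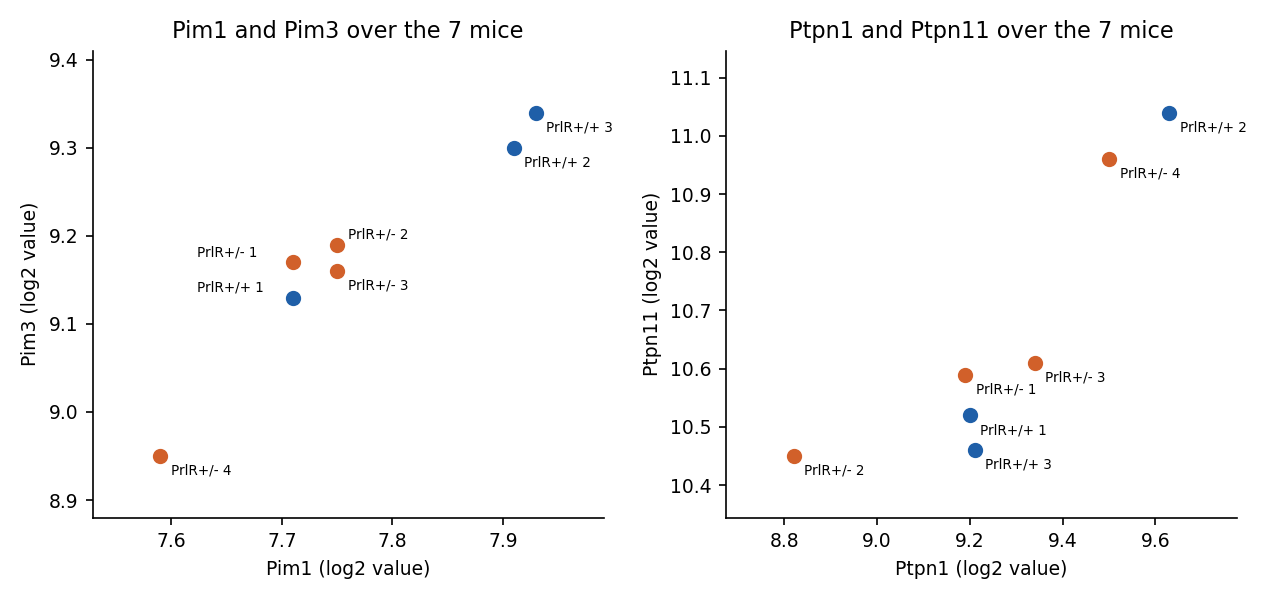
Log2 values of Pim3 against Pim1 and of Ptpn11 against Ptpn1, 1 point per mouse (blue PrlR+/+, orange PrlR+/-). Pim1 and Pim3 rose together from PrlR+/- 4 to PrlR+/+ 3 (r = 0.967), and PrlR+/+ 2 and PrlR+/- 4 were high for both phosphatases (r = 0.867).

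The genes most like each member over the 7 mice were ranked by Pearson's r among those genes. For Pim1 they were Ddx6, an RNA helicase gene of mRNA decay (r = 0.971), and Pim3 itself. For Pim2 they were Yrdc and Fbxw8 (0.992 and 0.989), for Pim3 Clasp2 and Aldh3b1 (0.984 and 0.98), and for Bcl6 2310057M21Rik and Taf1a (0.97 and 0.926). Ptpn1 was most like Kdm8 and Rwdd2a (0.994 and 0.991), Ptpn2 like Dpagt1 and Rbm15b (0.931 and 0.914), Ptpn6 like Zfp865 and Top3b (0.985 for both), and Ptpn11 like Cxadr and Sec23ip (0.986 and 0.985). An r above 0.9 was frequent for Ptpn1 (130 genes), Ptpn11 (100), Pim2 (80), Ptpn6 (78) and Pim3 (66), and rare for Pim1 (13), Ptpn2 (4) and Bcl6 (3). With 7 mice such values arise for many genes, and they describe these arrays alone.

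Other genes of the pathway were counted from lists chosen by known function. In these lists 0 genes passed over all genes, and unadjusted p under 0.05 occurred for 1.13% of all genes on the lower and 1.07% on the higher side. Of all genes 43.7% had a lower mean in PrlR+/-. The groups did not overlap for 1.21% on the lower and 1.03% on the higher side. Of 9 JAK kinase and STAT genes measured, 0 had an unadjusted p under 0.05, and the median log2 difference was 0.0717. Jak2, the kinase bound to the receptor, was at 8.44, 8.63 and 8.58 in PrlR+/+ and 8.50, 8.31, 8.47 and 8.15 in PrlR+/- islets, a log2 difference of -0.19 ± 0.10 (SE). Stat5b, a signal carrier of the receptor, was at 0.09 ± 0.07.

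The SOCS family and other inhibitors of the pathway had 2 of 15 genes with an unadjusted p under 0.05, both lower, and a median of -0.000833. These were Socs2 and Cish, STAT5-induced feedback inhibitors, with log2 differences of -0.28 ± 0.09 and -0.46 ± 0.15 (SE). Socs2 read 11.66, 11.63 and 11.71 in PrlR+/+ and 11.56, 11.21, 11.38 and 11.38 in PrlR+/- islets, with no overlap. The Socs2 difference equalled that of Pim2 in size, but its groups did not overlap, whereas the Pim2 difference rested on PrlR+/+ 2. Whether Pim1 and Socs2 differ in their response to genotype was not tested.

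Among 23 genes known to be regulated by STAT5 or STAT3, with the Pim genes and Bcl6 left out, 15 means were lower and 8 were higher, and the median log2 difference was -0.07. Unadjusted p under 0.05 occurred for 4, all lower: Socs2, Cish, Tnfrsf11b, which encodes osteoprotegerin (-0.71 ± 0.23, SE), and Tph2, a tryptophan hydroxylase gene (-0.62 ± 0.23). Their limma adjusted p was 0.99. Work on these or similar islets may have shaped this list, so its direction is not independent evidence. The Pim1 difference of -0.15 lay between the list median and these 4 genes.

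Downstream of the Pim kinases, 15 measured genes of their substrates had 0 with an unadjusted p under 0.05 and a median of 0.0175. The smallest unadjusted p belonged to Cxcr4, a chemokine receptor gene (0.21 ± 0.15, SE), and Map3k5, which encodes the stress kinase ASK1 (-0.12 ± 0.09). Cxcr4 read 7.13, 6.53 and 7.11 in PrlR+/+ and 7.11, 7.11, 7.19 and 7.11 in PrlR+/- islets, so only PrlR+/+ 2 was low. The 13 measured corepressors and relatives of Bcl6 had a median of -0.0325 and 0 with an unadjusted p under 0.05. Hdac4, a class II histone deacetylase gene, was at 0.35 ± 0.18 and the Polycomb gene Pcgf1 at 0.25 ± 0.16. Hdac4 was high in PrlR+/- 3 and PrlR+/- 4 (9.49 and 9.44), against 8.67 to 8.97 in the other mice. Pcgf1 read 8.27 in PrlR+/+ 2 and 9.16 in PrlR+/- 3, with the other mice at 8.74 to 8.79.

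Of 18 measured genes known to be repressed by Bcl6, 13 means were lower and 5 were higher, and the median log2 difference was -0.0746. The 2 with an unadjusted p under 0.05 were Socs2, already counted in earlier lists, and Gadd45a, a growth arrest gene. Both were lower and without overlap, beside 1.21% of all genes without overlap on the lower side. Gadd45a read 8.59, 7.95 and 8.21 in PrlR+/+ and 7.91, 7.62, 7.76 and 7.93 in PrlR+/- islets, a log2 difference of -0.45 ± 0.15 (SE; limma, adjusted p = 0.99). In the same mice Bcl6 itself was at -0.06, and PrlR+/- 2, the mouse lowest in Bcl6, was also lowest in Gadd45a and Socs2.

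The phosphatase genes beyond the 4 members gave no call either. Of 16 other non-receptor and related phosphatase genes 0 had an unadjusted p under 0.05, with a median of 0.01. Ptpn12, a cytoskeletal phosphatase gene, was at -0.15 ± 0.07 and Ptpn7, a leukocyte phosphatase gene, at 0.16 ± 0.08 (SE). The groups did not overlap for Ptpn7, beside 1.03% of all genes without overlap on the higher side. Ptpn7 read 6.36 to 6.56 in PrlR+/+ and 6.58 to 6.79 in PrlR+/- islets. The median over 19 receptor phosphatase genes was 0.0542, with 14 higher and 5 lower means and 0 with an unadjusted p under 0.05. Ptprm and Ptpra were at 0.20 ± 0.11 and 0.22 ± 0.14. Ptpra read 9.66 to 9.70 in PrlR+/+, 9.60 and 9.75 in PrlR+/- 2 and PrlR+/- 1, and 10.09 and 10.13 in PrlR+/- 3 and PrlR+/- 4.

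For 28 adaptors and receptors that Ptpn1, Ptpn6 and Ptpn11 bind or dephosphorylate, the median was 0.0338, with 19 higher and 9 lower means and 0 with an unadjusted p under 0.05. Gab1, the docking protein through which Ptpn11 is recruited, was at 8.25, 8.22 and 8.28 in PrlR+/+ and 8.29, 8.36, 8.40 and 8.44 in PrlR+/- islets. The groups did not overlap, with 8.28 and 8.29 as the nearest values, beside 1.03% of all genes without overlap on the higher side. The log2 difference was 0.12 ± 0.06 (SE; limma, adjusted p = 0.99). Dok2, an adaptor gene of blood cells, was at 0.11 ± 0.06. The stress list had lower means for all 13 measured genes, with a median of -0.506 and 0 with an unadjusted p under 0.05, among them Nr4a1 (-0.54 ± 0.25) and Junb (-0.48 ± 0.24). In that list PrlR+/+ 3 stood apart, as described above.

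**Figure D5:**
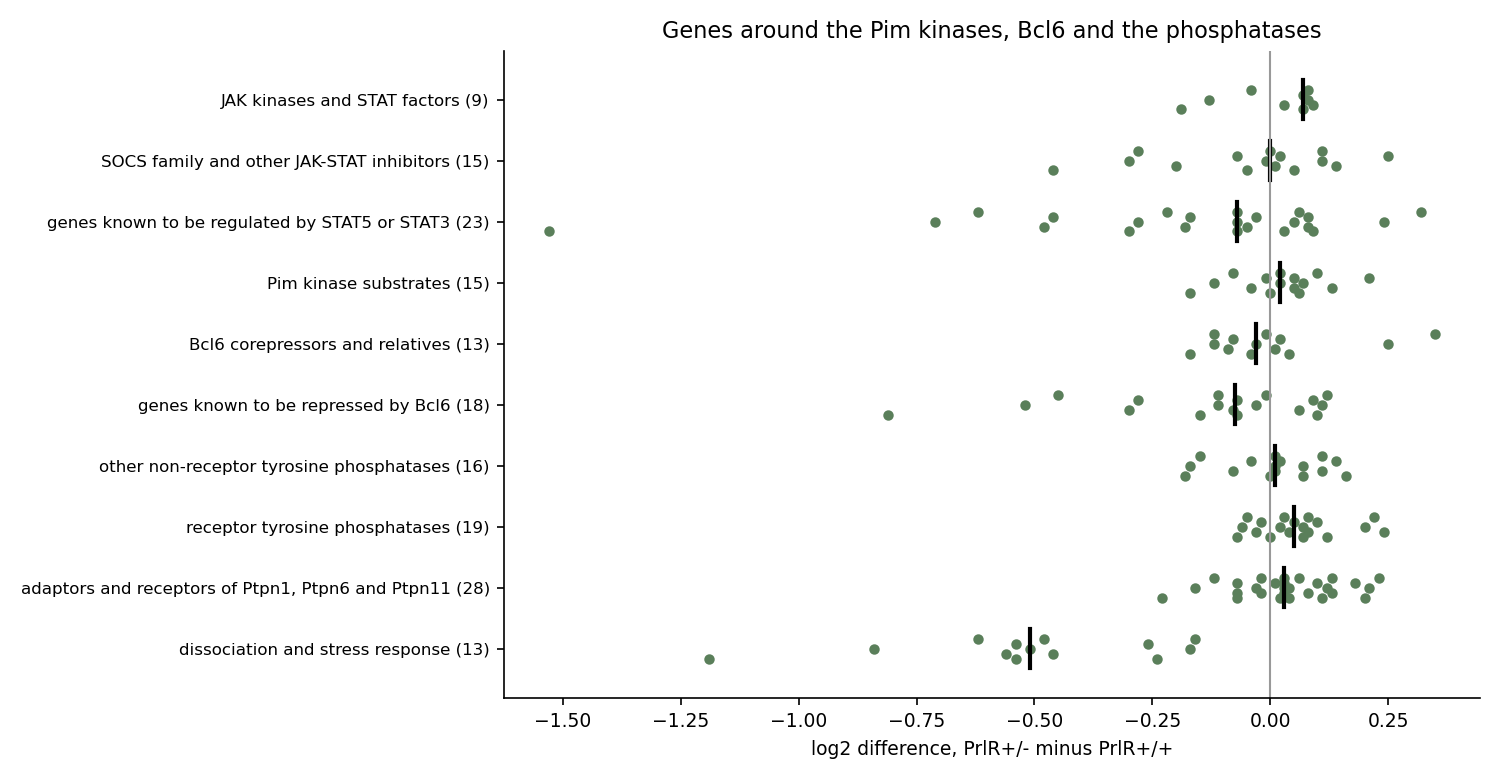
Log2 differences, PrlR+/- minus PrlR+/+, of the genes of 10 lists around the Pim kinases, Bcl6 and the phosphatases; each point is a gene, the black tick is the median of the list, and the number measured is in brackets. List medians lie between -0.0746 and 0.0717 except for the dissociation and stress list at -0.506.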

How the data were processed

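Islets of each mouse were measured on 1 array; groups came from the source labels. The authors deposited log2 values per probe set, with 2 decimals and a range of 1.73 to 13.97; that they are log2 was inferred from their range. Affymetrix Expression Console 1.2.0.20 was used, per the submitters' processing notes; how arrays were normalized and probes summarized is not given in the sources used here. Arrays have no read depth. Of 35556 probe sets, 21789 carried 1 gene symbol in the platform annotation, and the probe set with the highest mean represented each of 19938 genes; no dim gene was removed.

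Differences came from limma 3.58.1 (lmFit, eBayes) in R 4.3.3 with Benjamini-Hochberg adjustment over all genes and a threshold of 0.05; limma's steps were tested on simulated data. Tables were handled with pandas 2.3.3 in Python 3.11.15. Whether mice were litter mates is not given. The limma p-values set each genotype difference against the spread between mice, moderated across genes. Those of the correlations come from permuted pairings of the mice, with both genotypes pooled. Named genes are the 8 members, the 2 of smallest unadjusted p in each pathway list and any others under 0.05 there, Ptprc, and the 2 genes most like each member. Tph2 and Tnfrsf11b, and Ptpra, Gab1 and other values by mouse, were singled out after their values were seen. The members and lists were chosen with earlier results of these data known. Same-numbered mice of both genotypes were not treated as pairs.

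Alternatives were other variance models, array weights, quantile normalization, median centring, 2 filters on dim genes, the mean of probe sets, marker covariates, the replicate block, and leaving out each mouse. The stress list covariate and the 28 correlations were added after the data were seen.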

Additional observations from a re-analysis of the deposited data

Results flagged for a closer look

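In 6 of 47 sets of 4 PrlR+/- values, a single mouse lay far from the other 3. The gap was over 0.829 of the range. Chance gives about 1 set in 20 for independent, normally distributed values. All sets come from the same 4 mice, many genes were picked by small unadjusted p, and some sets hold repeated values. The 6 sets are therefore not shown to exceed that rate. Pim3 was one of them, with a gap of 0.875 of the range below the other 3 mice in PrlR+/- 4. The alpha cell marker mean was also low in PrlR+/- 4 (0.914). Ptpn7 was high in PrlR+/- 4 (0.952), Pcgf1 and Cxcr4 were high in PrlR+/- 3 with the other 3 mice at equal values (1.0 for both), and Ptpn12 was high in PrlR+/- 3 (0.889).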

How the results depend on the processing

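No gene was called in any alternative, and of the 8 members 0 were called; a threshold of adjusted p under 0.1 also gave 0 genes, and unadjusted p under 0.05 gave 438. That count was 1132 with array weights, 264 and 259 with the 2 filters on dim genes (fewer genes tested), 242 with the stress list covariate, and 247 to 794 with a mouse left out, lowest without PrlR+/+ 3 and highest without PrlR+/- 2. Of 20 alternatives per gene, Pim1, Pim2, Pim3, Bcl6 and Ptpn2 kept a lower mean in all, but not all of these could turn a sign. The other variance models, the 2 filters on dim genes and the exact permutation test leave the difference unchanged. The mean of probe sets alters only Ptpn2 among the members. The replicate block gives the same differences as leaving out PrlR+/- 4. The Ptpn2 difference was -0.03 with the mean of its probe sets. Ptpn11 turned to 0.04 with array weights and 0.15 with the pan-leukocyte covariate, Ptpn1 to 0.02 with that covariate, and Ptpn6 to -0.01 and -0.03; the cause was not tested. With a mouse left out the differences ranged from -0.13 to 0.16 for Ptpn11, -0.23 to 0.01 for Ptpn1, -0.04 to 0.06 for Ptpn6 and -0.40 to -0.09 for Pim2. With each mouse left out, r was 0.951 to 0.982 for Pim1 with Pim3 and 0.777 to 0.959 for Ptpn1 with Ptpn11. In these fits of 6 mice neither passed the adjustment over the pairs, but fewer pairings raise the smallest p that can be reached. After quantile normalization Ptpn1 with Ptpn11 had r = 0.878 (exact permutation, adjusted p = 0.117). Same-numbered mice did not deviate together (r = 0.09, -0.386 and -0.029 for numbers 1 to 3), so the replicate block is given only here: it left 341 genes with an unadjusted p under 0.05 and the Pim1 difference at -0.11. Mouse 4 has no PrlR+/+ partner and does not bear on that fit. Arrays have no read depth, and signal over background was not analysed here.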
